A study of Mus musculus with 4 samples.

Results

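The 56 genes described here are homeobox developmental genes that lie outside the Hox clusters, together with the related Pax genes. They are the Msx, Dlx, Nkx, Barhl, Evx, Gbx, Gsx, Cdx, Pdx, En, Emx, Lhx, Isl, Lmx, Otx, Pitx, Pax and Irx genes, with Six2, Six3 and Six6, of a list given by symbol. All 56 were found by symbol among the 49554 genes of the mm10 RefSeq annotation on chromosomes 1 to 19 and X, and each was taken with 15 kb on either side. DNA methylation had been measured by whole-genome bisulfite sequencing, with libraries prepared by post-bisulfite adaptor tagging, in germline stem (GS) cells, which are cultured spermatogonial stem cells of the mouse testis. The cells were wild type, came from Green mice, which carry an act-EGFP transgene, on a DBA/2 background, and grew with GDNF, FGF2 and fetal bovine serum in both groups. The 5M-GS group had been cultured for about 5 months and the 60M-GS group for about 60 months. The labels name 2 replicates in each group, and 1 deposited table per group pools both, so every test below compares 2 pooled libraries and the spread between replicates is unknown. The labels do not say whether the replicates were separate cultures.

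Homeobox genes encode transcription factors that bind DNA through a homeodomain and set the identity of body regions, organs and neuron types in the embryo. The Pax genes encode a paired domain, with a full homeodomain in Pax3 and Pax6, a partial one in Pax2, Pax5 and Pax8, and none in Pax1 and Pax9. In cells that do not express them, many of these genes are held by Polycomb complexes, and their CpG-rich starts lie in broad unmethylated stretches of DNA. Such stretches are known to gain DNA methylation in aging tissues and tumours.

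Most of the starts were low in methylation in both cultures, while an inner start of Barhl1 was high and that of Pax8 intermediate, and 6 sequences are shown because they carry that contrast. Each is the 250 bases before a listed start, from RefSeq on GRCm38.p6, printed 5′ to 3′ on the gene's own strand with every CG, the site that is methylated, in capitals. The search for CG needs only 1 strand, since its reverse complement is also CG. The median of the members' windows held 15 CG, against 6 in the 32619 windows of this table on chromosomes 1 to 19 and X.

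Barhl1, inner start: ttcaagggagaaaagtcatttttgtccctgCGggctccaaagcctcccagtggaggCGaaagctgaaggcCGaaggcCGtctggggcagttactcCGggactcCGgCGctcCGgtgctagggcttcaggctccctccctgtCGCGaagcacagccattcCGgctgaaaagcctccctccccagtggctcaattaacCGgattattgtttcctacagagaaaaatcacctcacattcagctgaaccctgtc
Barhl1, outer start: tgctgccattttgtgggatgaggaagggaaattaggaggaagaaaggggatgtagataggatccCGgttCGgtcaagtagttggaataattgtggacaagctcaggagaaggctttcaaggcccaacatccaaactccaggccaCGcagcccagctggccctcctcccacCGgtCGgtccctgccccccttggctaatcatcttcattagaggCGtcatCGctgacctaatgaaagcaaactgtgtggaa
Msx1: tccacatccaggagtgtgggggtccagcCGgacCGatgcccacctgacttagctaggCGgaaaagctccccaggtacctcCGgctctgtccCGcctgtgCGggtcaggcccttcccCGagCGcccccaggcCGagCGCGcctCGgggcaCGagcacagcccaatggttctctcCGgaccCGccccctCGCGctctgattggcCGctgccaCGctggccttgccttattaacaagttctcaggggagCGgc
Isl1: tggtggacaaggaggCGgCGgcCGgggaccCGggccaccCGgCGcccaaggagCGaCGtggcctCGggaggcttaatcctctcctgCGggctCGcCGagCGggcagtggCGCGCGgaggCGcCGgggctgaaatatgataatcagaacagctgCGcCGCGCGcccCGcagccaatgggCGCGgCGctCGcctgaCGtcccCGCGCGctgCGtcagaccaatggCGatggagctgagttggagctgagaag
Six2: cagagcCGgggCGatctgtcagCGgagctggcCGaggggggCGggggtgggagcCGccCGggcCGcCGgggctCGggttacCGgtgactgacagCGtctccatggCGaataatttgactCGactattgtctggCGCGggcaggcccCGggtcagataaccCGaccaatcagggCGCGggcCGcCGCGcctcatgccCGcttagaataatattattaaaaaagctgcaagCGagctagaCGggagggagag
Pax8: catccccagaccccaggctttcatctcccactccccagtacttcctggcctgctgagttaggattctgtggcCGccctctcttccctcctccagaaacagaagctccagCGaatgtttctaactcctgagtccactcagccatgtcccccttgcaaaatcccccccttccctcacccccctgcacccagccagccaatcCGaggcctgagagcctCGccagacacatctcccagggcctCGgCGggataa

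The inner Barhl1 start (chr2:28912496-28912745, minus strand) had 12 CG and a methylation level (methylated calls as a percent of all its calls) of 88.3% after 5 months and 84.9% after 60 months. The outer Barhl1 start (chr2:28916669-28916918, minus strand) had 7 CG and stood at 1.14% and 1.08%. The 2 starts of the same gene thus lay at opposite levels in both cultures. The Msx1 sequence (chr5:37824586-37824835, minus strand) had 20 CG, a number that 18.1% of all windows in the table reach, and stood at 1.05% and 0.665%. The Isl1 sequence (chr13:116309689-116309938, minus strand) had 33 CG, reached by 4.06% of windows, and stood at 0.873% and 0.501%. The Six2 sequence (chr17:85688255-85688504, minus strand) had 26 CG and stood at 0.718% and 0.577%. These 3 starts were low in both tables, although other DNA inside or beside the same 3 genes was methylated in 60M-GS, as given below. The Pax8 sequence (chr2:24475600-24475849, minus strand) had only 6 CG, a number that 50.6% of windows reach, and stood at 19.05% of 105 calls and 14.5% of 145 calls.

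Sequencing depth was similar, with 468121185 calls over 19371838 CpGs after 5 months (median 21 per CpG) and 471693518 calls over 19341319 CpGs after 60 months (median 22 per CpG). Levels were summed over the 17634196 CpGs that had 5 or more calls in both. At the member loci the ratio of 60M-GS to 5M-GS calls ranged from 0.978 to 1.10. As a check of the cell type, 8 of the 10 listed stem cell genes had a listed start, and 8 of their 9 start windows (1000 bp before to 500 bp after the start) were under 10% in both tables. The exception was Nanos2, a repressor of germ cell differentiation, at 63.6% and 55.1%. In 5M-GS, 12631 genes outside the members had a start window under 10%, so low stem cell starts alone do not identify the cells. Imprinted genes that carry methylation on the maternal copy in body cells had low starts, for example Peg3 at 1.00% and 0.937%, apart from 2 further Snrpn starts at 74.6% and 69.6% and at 41.5% and 55.6%. DNA upstream of H19 is methylated on the paternal copy. No strand was listed for H19, so both sides were measured, and only the upstream one is that region. The upper side stood at 93.5% and 91.0%, and the lower side at 78.2% and 61.8%.

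CpG-dense runs, here 20 or more CpGs spaced no more than 50 bp apart over 200 bp or more, were the unit closest to a CpG island. The 56 loci held 287 such runs, at least 1 at every member, and 284 were under 10% in 5M-GS. Most remained low: 263 were under 10% in both tables and 261 differed by less than 5 percentage points. The median run of the members had a level of 0.827% after 5 months and 0.883% after 60 months, beside 0.572% and 0.603% over all 23248 runs of the genome. A run was called where Fisher's exact test on methylated and unmethylated calls gave a Benjamini-Hochberg adjusted p under 0.05 over all runs and the levels differed by at least 20 points. In 9 members, 13 of the 287 runs (4.53%) rose and none fell, against a background of 5.13% of all runs higher and 0.12% lower. The share of members' runs that rose was therefore near that of the genome. A run under 20% in 5M-GS cannot be called lower, and 284 of the 287 began under 10%. The lack of falls was thus largely set beforehand. The run counts given below for each gene group are small and are to be read beside the same 5.13%. Among runs that began under 10%, 11 of 284 rose at the members (3.87%) and 493 of 19735 in the genome (2.50%).

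**Figure D1:**
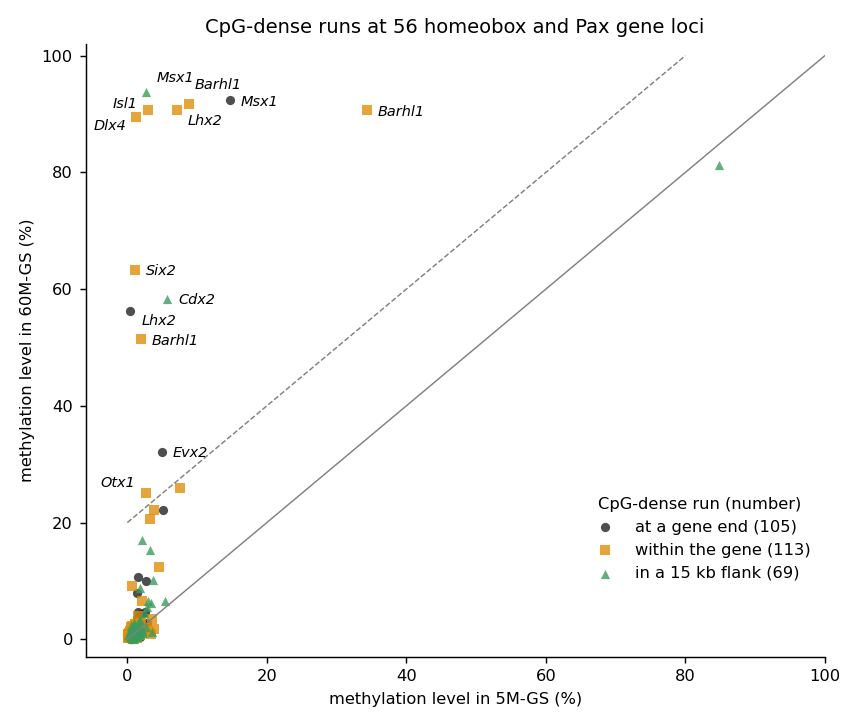
Methylation level of each of the 287 CpG-dense runs in 5M-GS (x axis, percent) and 60M-GS (y axis, percent), with gene ends, gene interiors and 15 kb flanks as separate symbols. The solid line marks equal levels, the dashed line a difference of 20 points, and the 13 called runs, named, lie above it. Of the other points 263 lie under 10% on both axes, a few uncalled ones reach up to 25.9% in 60M-GS (Pax3), and 1 Gbx1 flank run lies at 84.8% and 81.2%.

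The runs that rose lay mostly inside genes. Of 105 runs within 1000 bp of an annotated gene end, 3 rose (2.86%), against 1.34% of such runs of all protein-coding genes. Of 113 runs inside genes, 8 rose (7.08%), against 11.1%, and of 69 runs in the flanks, 2 rose (2.90%), against 5.66%. The 32 runs that contain a listed start all stayed uncalled, and none of them exceeded 3.46% in the younger or 4.61% in the older culture. The annotation used here gives no exons, so a place inside a gene is not divided into exon and intron.

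In 60M-GS the 13 runs stood at 3 separate heights. In 7 runs, at Msx1 (both of its runs), Dlx4, Isl1, Lhx2 and Barhl1 (2 runs), the level ended between 89.5% and 93.9%. In 4 runs, at Barhl1, Lhx2, Cdx2 and Six2, it ended between 51.4% and 63.3%, and in the last 2, at Evx2 and Otx1, at 32.2% and 25.1%. The highest adjusted p of the 13 was 7.6e-26, at Evx2 (Fisher's exact test with Benjamini-Hochberg adjustment). Single CpGs covered by 10 or more calls in each table showed how complete the change was: 122 of 365 such CpGs in the 13 runs went from at most 10% to at least 80%, and 363 had a higher level in the older culture. None of 11426 CpGs in the other runs of the members made that switch. Runs were called on these same calls, so the counts describe the called runs and are no separate evidence. In a pooled table, partial methylation of every cell and full methylation of some cells cannot be told apart.

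Tiles of 1 kb, which also cover DNA with few CpGs, showed change at more members. Of 2681 tiles, 120 (4.48%) rose, in 42 members, and 15 (0.559%) fell, in 10 members. The background was 3.48% of all tiles higher and 0.475% lower. A locus held from 21 tiles, at Dlx2, to 209, at Pax5, and the counts of members were not set beside other loci. The tiles that rose began at a median of 22.0% and ended at 69.8%, and only 17 of the 120 touched a called run. The losses were 3 tiles each at Cdx1 and Dlx4, 2 at Pax5, and 1 each at Isl1, Lhx3, Lhx6, Lmx1a, Nkx2-2, Pax1 and Six3. The 3 Dlx4 tiles were adjacent (chr11:95149001-95152000) and went from 60.6% to 27.7%, from 50.4% to 26.9% and from 55.7% to 33.5%. When calls were divided by the number of CpGs, so that a read crossing many CpGs is not counted many times, 27 gains and 0 losses were called. The smallest gain that kept its call this way was 47.2 points, at Six2, and the largest loss was -35.6 points, at Six3. Dividing leaves few calls per tile, so the 0 does not show that the losses are absent. The 10 members without any called tile were Dlx3, Nkx6-2, Gsx1, Emx1, En1, Isl2, Pax8, Six6, Irx3 and Irx5.

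Among the Msx and Dlx genes, which pattern the face, teeth, limbs and forebrain, 3 of 31 runs rose, in Msx1 and Dlx4. A run 12468 bp beyond the far end of Msx1, a gene for tooth and palate formation (chr5:37807660-37808023), went from 2.71% of 590 calls to 93.9% of 651 calls. That is a difference of 91.1 points (95% interval 88.5 to 93.0, counting error only, as for every interval here), and it ranked 7th among all runs of the genome. Of its 18 well covered CpGs, 17 switched. A second Msx1 run, at the far end of the gene where it overlaps the antisense RNA gene Msx1os (chr5:37821293-37821698), stood at 14.7% and 92.4%. The start of Msx1 stayed low, and the unmethylated stretch around it was 7 kb long in both cultures.

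Dlx4, a further relative in this group, had a run inside the gene (chr11:95143062-95143277) that went from 1.20% of 664 calls to 89.5% of 619 calls, with 20 of 21 CpGs switched. Its 2 runs at the upper gene end, shared with the antisense gene Dlx4os, stayed under 1% in both tables, at 0.924% and 0.498% for one and 0.383% and 0.709% for the other. Dlx4 also held the single loss seen with a looser definition of runs (15 CpGs, gaps of up to 100 bp): a run in its upper flank (chr11:95149526-95151189) went from 52.6% to 27.6%, where 0.934% of looser runs in the genome were lower. Gain inside the gene and loss beside it thus occurred at the same locus.

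The other Dlx genes had no called run. At Dlx1, for forebrain interneurons, a run inside the gene stood at 3.80% and 22.2%, under the limit of 20 points (difference 18.4, Fisher's exact test, Benjamini-Hochberg adjusted p = 1.9e-19). In Dlx1, 5 tiles were called higher, among them 1 in the lower flank at 22.8% and 86.8%. Its neighbour Dlx2 kept its start window at 1.11% and 0.955%, and Dlx5 and Dlx6, which shape the jaw and limbs, kept their end runs under 1%. Tiles beside both were called higher, by 66.4 points in a Dlx5 flank and 58.0 points in a Dlx6 flank. A run in the lower flank of Dlx6 (chr6:6850499-6850743), shared with the lncRNA gene Dlx6os1, stood at 3.30% and 15.2%, under the limit (difference 11.9). Dlx3, for hair, teeth and bone, had no called tile, and a run in its lower flank stood at 2.06% and 17.0%, under the limit. Msx2, a relative of Msx1 for skull bone, had 3 runs, all under 1% in both tables.

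Barhl1, which is needed for hair cells of the inner ear, held all 3 called runs among the 42 of the Nkx and Barhl group. With this definition of runs that is more than any other member. These runs lie one after another inside the gene. With the looser definition the middle run and the one nearest the inner start join into a single run, so the rank depends on the gap allowed. The run farthest from the inner start (chr2:28909106-28910009) went from 1.98% of 1366 calls to 51.4% of 1478 calls, and none of its 58 well covered CpGs switched, ending between 21.7% and 75% in 60M-GS. The middle run (chr2:28911288-28911611) went from 8.87% to 91.8%, with 19 of 29 CpGs switched. The run beginning 172 bp inside the inner start (chr2:28911664-28912323) went from 34.4% to 90.7%. The profile of the locus shows a valley in 5M-GS that is filled in 60M-GS, only partly in the run farthest from the inner start. The valley at the outer start stays near 0.

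The same stretch gave the only called start window of the members. Of 54 start windows in the 43 members with a listed start, 1 rose and 0 fell, against 4.34% higher and 0.528% lower of all windows. The window at the inner Barhl1 start stood at 68.1% and 89.2%, and it lost its call with divided calls (adjusted p = 1, Fisher's exact test with Benjamini-Hochberg adjustment). Before that start the level was 88.5% and 87.3%, and after it 48.9% and 90.7%, so the change lay on the gene side. The window at the outer start stood at 0.562% and 0.628%. Barhl2, which acts in retina and spinal cord, had no called run, and its start window was at 0.250% and 0.618%. A run at the far end of Barhl2 stood at 5.15% and 22.1% (difference 17.0, Fisher's exact test, adjusted p = 6.62e-21), under the limit.

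**Figure D2:**
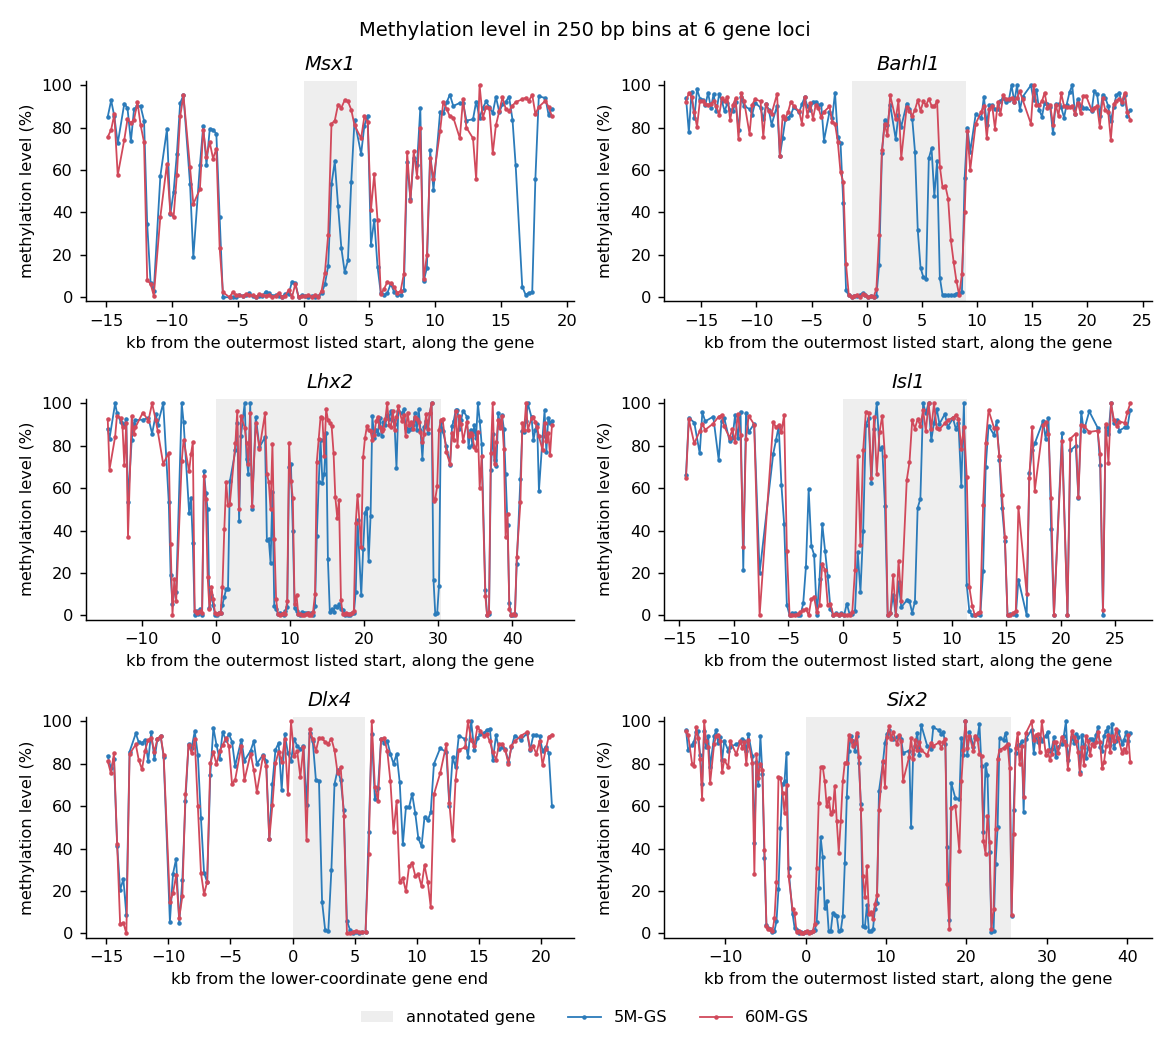
Methylation level (y axis, percent) in 250 bp bins along 6 loci, against distance in kb from the outermost listed start or, for Dlx4, from its lower gene end, with 5M-GS in blue, 60M-GS in red and the annotated gene shaded. In the Barhl1, Isl1, Dlx4, Lhx2 and Six2 panels a valley inside the gene is wholly or partly filled in 60M-GS beside a second valley that remains near 0. In the Msx1 panel such filling is seen at the far end and in the flank, where the called run ends at 93.9%.

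The Nkx genes of this group had no called run. Nkx2-1, for thyroid, lung and ventral forebrain, had a start window at 1.80% and 3.59% and 3 called tiles around the gene. Nkx2-5, a regulator of heart development, had its start at 3.41% and 5.18%, and a flank tile that rose from 31.6% to 87.7%. Nkx6-1, for pancreatic beta cells and motor neurons, stood at 0.230% and 0.471% at its start, and Nkx6-2, for oligodendrocytes, at 1.98% and 2.11% with no called tile. Nkx2-2, for the ventral neural tube and pancreatic islets, kept an 8 kb unmethylated stretch in both cultures and had its start at 1.02% and 0.968%. The starts of these 5 genes were low in both tables, and called tiles, where there were any, lay at far ends or in flanks.

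In the LIM group, whose proteins join a homeodomain to LIM domains and specify neurons, eye, pituitary and limb, 3 of 57 runs rose. Isl1, for motor neurons and heart progenitors, had 2 runs. The one at its start stayed at 0.713% and 0.522%, and the one inside the gene (chr13:116302983-116303375) went from 3.02% of 663 calls to 90.7% of 648 calls, with 22 of 24 CpGs switched. This run lies 6313 bp from the start printed above, so at the same gene 1 of 2 runs was methylated almost fully and the other hardly at all.

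Lhx2, for eye, forebrain and hair follicle, rose at 2 places. Inside the gene (chr2:38354450-38354989), 3142 bp from its nearer listed start, the run went from 7.14% of 1023 calls to 90.6% of 1229 calls, with 28 of 38 CpGs switched. At the far end, where Lhx2 overlaps the lncRNA gene Gm13584 (chr2:38368780-38369163), the run went from 0.430% to 56.3%, and its 23 well covered CpGs lay between 44.0% and 75% in 60M-GS. Both listed starts stayed low, at 1.29% and 2.17% for the outer one and 0.837% and 0.516% for the inner one.

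The other LIM genes had no called run. Lhx3, for the pituitary and motor neurons, stood at 10.5% and 20.3% at its outer start (difference 9.83 points, 95% interval 6.32 to 13.3) and at 4.49% and 9.32% at its inner start, neither past the limit. Lmx1a, for the roof plate and dopamine neurons, stood at 0.385% and 1.60%. Lhx6, for cortical interneurons, had 3 listed starts between 0.311% and 2.75% in 5M-GS and between 0.815% and 3.20% in 60M-GS. The start of Lhx4, for the pituitary, was at 0.435% and 0.450%, that of Lhx9, for the gonad, at 4.02% and 4.45%, that of Isl2, for motor neurons, at 0.512% and 0.837%, and that of Lmx1b, for the dorsal limb, at 0.630% and 1.35%. Lhx5 has no listed start, and its 3 end runs were between 0.575% and 0.711% in 5M-GS and between 0.524% and 1.47% in 60M-GS. Lhx8, which also acts in oocytes, had its start at 2.46% and 1.95% but 7 called tiles, among them a flank tile at 8.49% and 73.99%.

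Six2, Six3, Six6 and the Irx genes, for eye, kidney, heart and limb, had 1 called run of 39. It lies inside Six2, which keeps kidney progenitors undifferentiated (chr17:85685264-85685605), and went from 1.08% of 465 calls to 63.3% of 684 calls. The ratio of 60M-GS to 5M-GS calls was 1.47 there, in a range of 0.906 to 1.48 over the called runs and 0.694 to 1.74 over the others, and its part in the result was not tested. The 4 adjacent tiles from 85683001 to 85687000 were all called higher, at 18.2% and 68.5%, 5.48% and 52.7%, 4.57% and 62.6%, and 22.2% and 55.8%. With divided calls only the middle pair was called, and the outer ones were not (Fisher's exact test, adjusted p = 0.0628 and 0.558). The 4 tiles lie next to a start window that stayed at 0.529% and 0.524%. A further Six2 run stood at 3.28% and 20.6%, under the limit. Six3, for forebrain and eye, had its start at 3.26% and 3.29%, but upper flank tiles that rose from 10.6% to 83.9% and from 26.2% to 89.5%. Six6, for retina and pituitary, had its start at 0.794% and 0.723% and no called tile.

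The Irx genes had no called run. Irx2 and Irx3 stood at 0.756% and 0.503% and at 0.715% and 0.564% at their starts. Irx1 and Irx5 have no listed start, and the highest of their end runs was 1.05% in 5M-GS, at Irx1, and 1.23% in 60M-GS, at Irx5. Irx3 and Irx5, which act in heart and limb, had no called tile, while Irx1 and Irx2 had 2 each, with the largest difference at Irx1, from 8.15% to 37.4%. None of these 4 was called with divided calls.

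The group of extended Hox, ParaHox and head genes, which give position along the body axis, gut and brain, had 2 called runs of 55. Cdx2, for the trophectoderm and intestine, had a run in its upstream flank, 5629 bp from the start (chr5:147312878-147313252), that went from 5.74% of 505 calls to 58.3% of 571 calls. Evx2, for limb and spinal cord, had a run at its start end, 1379 bp before the listed start (chr2:74660936-74661282), that went from 4.96% of 383 calls to 32.2% of 566 calls. That run had a call ratio of 1.48, and it lost its call with divided calls (adjusted p = 0.781 in Fisher's exact test with Benjamini-Hochberg adjustment). The Evx2 start window itself was at 2.50% and 2.79%, and 6 tiles of the locus were called higher.

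None of the other starts of this group passed the limit. Evx1, for spinal cord interneurons, stood at 10.97% and 17.2% (difference 6.18 points, 95% interval 3.38 to 8.98) and Pdx1, for the pancreas, at 5.02% and 9.67% (difference 4.65 points). Cdx2 stood at 3.11% and 5.49%. Gbx2 (0.611% and 0.703%), Gsx1 (1.03% and 1.59%), Gsx2 (1.10% and 0.755%), En1 (0.529% and 0.519%), Emx1 (0.587% and 0.995%) and Emx2 (0.893% and 1.12%), which pattern forebrain, midbrain and hindbrain, all differed by less than 1 point. Gbx1, for the spinal cord, En2, for midbrain and cerebellum, and Cdx1, for the intestine, have no listed start, and their end runs ranged from 0.649% to 0.878% in 5M-GS and from 0.432% to 0.929% in 60M-GS. In these loci the tiles that rose included 1 at the far end of Gbx2 from 24.5% to 87.9%, 1 at the upper end of En2 from 24.9% to 83.8%, and 1 in the lower flank of Emx2, for cortex and urogenital tract, from 18.9% to 81.8%. Cdx1 went partly the other way, with 3 tiles lower in 60M-GS, the largest change from 60.7% to 28.9%, and 1 higher.

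In the paired class Otx1, for forebrain and sense organs, had the only called run of 20. It lies inside the gene, shared with the lncRNA gene Gm32517 (chr11:21998323-21998555), and went from 2.68% of 559 calls to 25.1% of 521 calls (difference 22.5 points, 95% interval 18.5 to 26.5). It too lost its call with divided calls (adjusted p = 1, Fisher's exact test with Benjamini-Hochberg adjustment), and the longer looser run that holds it differed by only 4.85 points and was not called. Otx2, for forebrain and retina, had 4 listed starts between 1.30% and 7.91% in 5M-GS and between 0.828% and 9.29% in 60M-GS. Pitx1, for hindlimb and pituitary, has no listed start, and its 3 end runs ranged up to 1.99% and 4.40%.

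The 7 Pax genes held 43 runs and none was called, beside 5.13% of all runs called higher. Whether so small a count differs from that share was not tested. Of their 664 tiles 20 rose (3.01%, beside 3.48% of all tiles). Pax2, for kidney and eye, had 13 of these runs, the highest at 1.45% in 60M-GS, and its 3 starts stood at 4.30% and 8.02%, 1.55% and 0.824%, and 0.631% and 0.497%. It had 6 called tiles, of which 2 adjacent ones in the upper flank rose from 16.4% to 91.3% and from 22.5% to 93.1%. Pax9, for teeth and thymus, had 7 called tiles and a start window at 1.62% and 6.99%, a difference of 5.37 points (95% interval 3.94 to 6.88). Pax5, for B cells, stood at 4.38% and 10.4% at its start, a difference of 6.00 points. Pax6, for the eye, had its 2 starts at 0.315% and 0.640% and at 2.50% and 1.89%, and Pax1, for the vertebral column, stood at 7.30% and 6.44%. Pax3, for neural crest and muscle, has no listed start. Its upper end run was at 0.760% and 0.814%, a run inside the gene stood at 7.57% and 25.9%, under the limit, and 4 adjacent flank tiles were called higher. Pax8, for the thyroid, had a start window under the limit as well, at 33.5% of 504 calls and 21.8% of 619 calls (difference -11.7 points, 95% interval -17.0 to -6.47), and no called tile.

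Start windows of the members as a whole stayed low: 49 of 54 were under 10% in both tables, with a median of 1.20% and 1.47%. The median over all start windows of the genome was 12.3% and 15.4%. The 13 members without a listed start, Cdx1, Otx1, Dlx3, Dlx4, Dlx5, Dlx6, Lhx5, Gbx1, Pitx1, Irx1, Irx5, En2 and Pax3, had 30 end runs, none called, with the highest at Otx1, 2.55% and 4.68%.

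The share of tiles called higher differed by starting level, but part of this was set beforehand. A call needs a rise of 20 points, so a tile with less than 20 points left to full methylation cannot be called higher. The 5M-GS level also enters the difference, so counting error in it alone can make tiles chosen as low appear to rise. The shares below therefore do not show that the starting level itself went with the change. Of member tiles under 10% in 5M-GS, 24 of 527 rose (4.55%), of those between 10% and 40%, 63 of 250 (25.2%), of those between 40% and 70%, 32 of 266 (12.0%), and of those above, 1 of 1638 (0.0611%). In all tiles of the genome these shares were 7.38%, 31.2%, 22.0% and 0.164%. At each starting level a smaller share rose at the members than in the genome, while their share over all tiles was above the background. The median member tile stood at 82.9% in 5M-GS and the median tile of the genome at 88.5%.

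Seen by distance, most gained tiles lay outside the first kb around the start. Only tiles within 15 kb of a listed start are counted here, so the 13 members without one are left out. Within 1 kb of a listed start the median member tile stood at 0.967% and 1.18%, and 4 of 100 tiles rose. From 1 to 2 kb, 13 of 93 rose (13.98%), and the median went from 3.81% to 7.02%. From 2 to 4 kb the median went from 15.3% to 29.7%, and from 4 to 6 kb from 35.4% to 51.8%. Beyond 10 kb it was 86.8% and 85.0%, with 5 of 371 tiles higher. The 12631 other genes with a start under 10% in 5M-GS had narrower valleys: their tiles at 1 to 2 kb already stood at a median of 70.8% and 73.4%, and 4.25% of them rose. In their tiles at 0 to 1, 2 to 4, 4 to 6, 6 to 10 and 10 to 15 kb, 2.57%, 1.98%, 1.98%, 2.03% and 2.15% rose. The members' shares at these distances were 4.0%, 9.39%, 9.47%, 5.66% and 1.35%. The neighbouring tiles of a gene share reads and DNA, so no test was made of these shares.

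**Figure D3:**
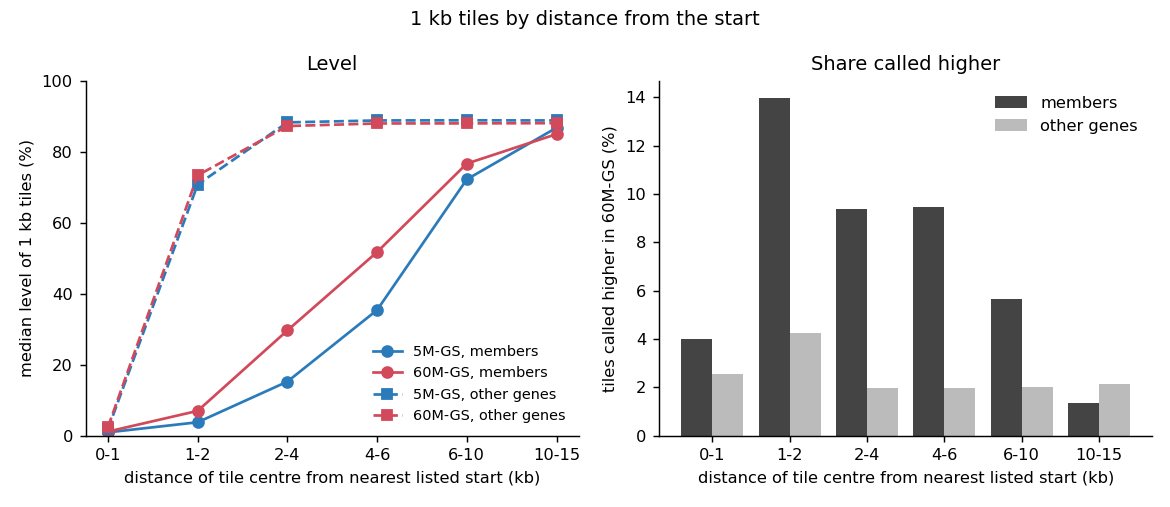
Left, median methylation level of 1 kb tiles (y axis, percent) by distance of the tile from the nearest listed start (x axis, kb) for members (solid lines) and for other genes whose start was under 10% in 5M-GS (dashed lines), with 5M-GS in blue and 60M-GS in red. Right, percent of these tiles called higher in 60M-GS, highest for members at 1 to 2 kb (13.98%). The 2 sets are not matched for starting level, which limits how many tiles can be called higher.

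The width of the unmethylated valleys was measured as the longest row of adjacent tiles under 10% at each locus. The median over the 56 members was 5 kb in the younger culture and 4 kb in the older. The row was shorter in 60M-GS at 25 members, of equal length at 29 and longer at 2. The largest falls were at Otx1, from 13 to 6 kb, Irx5, from 12 to 6 kb, and Irx1, from 8 to 4 kb. Irx3, Evx2 and Gsx1 each lost 3 kb. Lhx5, for forebrain and cerebellum, went the other way, from 7 to 10 kb, and Lhx8 from 5 to 6 kb. At Irx5, Irx3, Gsx1, Emx1 and En1 the row shortened without any called tile, and a tile can cross the 10% line with a change under 20 points. The only called tile at Otx1 began at 48.3%, so it was not part of the row. No test was made of these lengths. Of the 30 members with at least 5 kb in 5M-GS, 16 were shorter (53.3%), and of 450 other protein-coding genes with at least 5 kb, 155 (34.4%). With a line at 5% these shares were 47.4% and 44.7%, and with a line at 20%, 53.8% and 40.7%. Both sets were chosen for long rows in 5M-GS, so some shortening follows from that choice alone. At the 10% line the members' chosen rows were also longer in 5M-GS, with a mean of 6.83 kb against 5.94 kb.

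**Figure D4:**
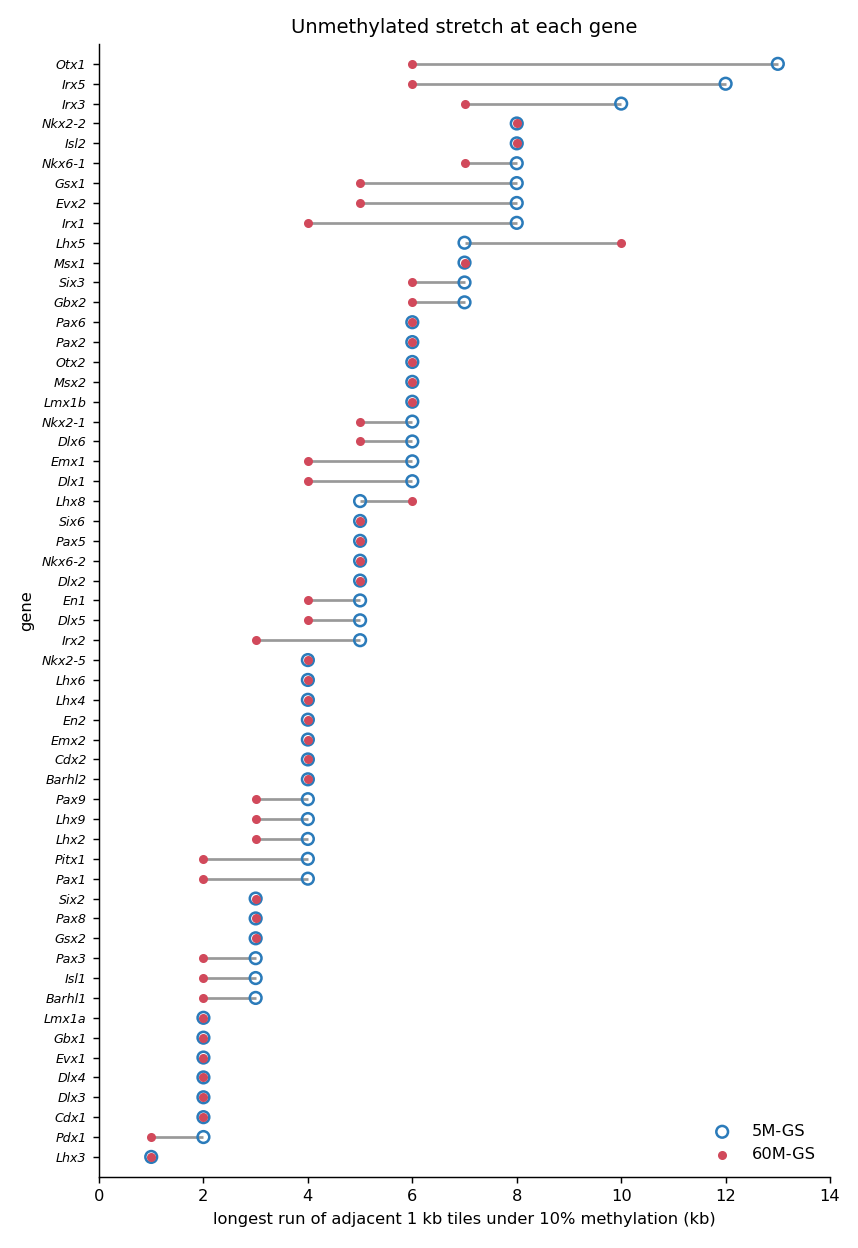
Longest row of adjacent 1 kb tiles under 10% methylation (x axis, kb) at each of the 56 genes (y axis), as open blue circles for 5M-GS and filled red circles for 60M-GS joined by a line. Filled circles lie to the left at 25 genes, farthest at Otx1 (13 to 6 kb), and to the right only at Lhx5 and Lhx8.

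Whether a run counted as changed depended on how dense it had to be. With looser runs (at least 15 CpGs, gaps of up to 100 bp), 51 of 489 runs in 27 members were higher (10.4%) and 1 was lower, against 12.1% higher and 0.934% lower in the genome. The looser runs brought in Emx2, En2, Gbx2, Pax2, Lmx1b and Otx2, among others, for example a run inside Otx2 from 9.15% to 49.4%. With denser runs (at least 30 CpGs, gaps of up to 30 bp), 0 of 94 were called, against 0.662% in the genome, and the highest level was 2.05% and 2.83%. The densest CpG clusters were thus low in both cultures at the 49 members that had one.

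Other gene lists were read the same way. Of 64 further homeobox developmental genes, 63 were found, with 246 runs, of which 5 rose (2.03%, beside 5.13% of all runs) and none fell. Those at gene ends were Barx1, for teeth and stomach, from 8.51% to 69.1%, and Hlx, for liver and gut, from 21.4% to 92.8%. Of their 2792 tiles 112 rose (4.01%, beside 3.48% of all tiles) and 15 fell. Among 22 genes for Polycomb proteins 6 of 85 runs rose (7.06%), and among 18 housekeeping genes 3 of 42 (7.14%), beside the same 5.13% of all runs. At none of these 3 lists was a start window called in either direction.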

How the data were processed

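Libraries of mouse germline stem cell DNA were made by adaptor tagging after bisulfite treatment, per the labels' protocols. Alignment used Bismark 0.10.0 and mm10, as the submitters' processing notes say. In the deposited tables, 1 per culture age, each CpG has 2 counts, its methylated and its unmethylated calls, not normalized. The authors also gave the percent of methylated calls, which equals the ratio of these counts and was used only as a check. Filters, duplicate removal and strand merging: not given in the sources used here.

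From the counts, levels were summed over CpGs that had 5 or more calls in both tables, in runs, 1 kb tiles and start windows of at least 4 such CpGs on chromosomes 1 to 19 and X. A region near several members was given to 1 member, ends before interiors before flanks, then the nearest. Strand and starts came from the RefSeq promoter table (43 of 56 members), places from the RefSeq gene table. Fisher's exact test (two-sided) was run on every region of the genome, with Benjamini-Hochberg adjustment, and a call needed an adjusted p under 0.05 and 20 points. Intervals are 95% Wilson intervals, combined by Newcombe's method for differences. Calls on 1 read are not independent, so a second test divided the calls by the CpGs of the region. That test keeps few calls per region, so a call lost under it does not show that a change is absent. The test was checked on simulated data in which every call was independent. That check covers neither calls that share a read nor the spread between replicates. Alternatives covered call minimums, differences, run density, windows and flanks. Every member is named, with its called runs or its start or end runs, and uncalled runs are named from 10 points upward. The members and lists were chosen with earlier results of these data known. Python 3.11.15, numpy 2.4.6, pandas 2.3.3, scipy 1.17.1 and numba 0.67.0 were used.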

Additional observations from a re-analysis of the deposited data

How the results depend on the processing

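Of the 13 called and 6 named uncalled runs, all 19 kept their direction and side of the limit with CpG minimums of 3 or 10 calls, with the mean of CpG levels and without CpGs over 74 calls. With divided calls 2 lost the call (Evx2 and Otx1). The same 2 lost it with a limit of 30 points, and Otx1 with looser runs (4.85 points), under which the uncalled Dlx1 run gained a call (26.9 points). Counts followed the definition of a region. Looser runs gave 51 higher and 1 lower, with 9 at ends, 19 within genes and 23 in flanks, and denser runs gave 0 in total and 0 at each place. A limit of 10 points gave 4 flank runs, 229 higher and 69 lower tiles, and one of 30 points 78 and 3 tiles. Divided calls left 27 and 0 tiles. An end window of 500 bp left 1 end run, flanks of 5 kb 0 and of 30 kb 5 flank runs, and a start window from 500 bp before to 250 bp after 0 windows. With tiles under 5%, 4 members had a longer row in 60M-GS. Leaving out regions with a call ratio under 3/4 or over 4/3, chosen after seeing the data, left 11 runs and 116 and 15 tiles. No direction reversed under these settings. A median of 21 or 22 calls per CpG limits single sites more than the members' runs, whose median depth was 778 and 838 calls. No paired analysis was possible because the replicates are pooled in 1 table per culture age, so none could be left out either. One culture line per age, or several, cannot be told apart, nor can culture time and any other difference between the 2 tables.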
